A study of Mus musculus with 4 samples.

Results

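The 36 genes described here encode heat shock proteins, their co-chaperones of the J protein family and the heat shock transcription factor HSF1. They were taken by symbol from a fixed list, and all 36 were found among the 25044 entries of the deposited tables. All 36 had a mean of at least 0.1 FPKM, the minimum set for testing, as did 17630 entries in all. RNA was measured by RNA-seq in the parasubthalamic nucleus (PSTh), a small cell group of the posterior hypothalamus, of naive C57BL/6 mice. There was 1 group of 4 libraries, replicates 1 to 4, and no stressed mice were sequenced. The study's title concerns PACAP and its receptor PAC1R in stress-induced anxiety-like behaviour, so these libraries give the baseline from which such an experiment starts. The labels give neither age nor sex, and nothing beyond the numbering says that the libraries came from separate animals, so each p-value reflects how far these 4 libraries differ, which may be technical.

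Chaperones bind unfolded or partly folded proteins and help them to fold, to be transported or to be degraded. HSP70 proteins bind short stretches of exposed chain in cycles of ATP hydrolysis that J proteins start and exchange factors such as the HSP110 proteins reset, while HSP90 proteins act later on clients such as kinases and steroid hormone receptors. Most families hold both a constitutive gene, which supplies folding capacity in resting cells, and inducible genes, which HSF1 switches on when unfolded proteins accumulate. Brain tissue is known for a large constitutive pool. On these textbook grounds the members were divided into 10 inducible, 14 constitutive cytosolic, 3 endoplasmic reticulum (ER), 4 mitochondrial and 4 muscle-associated small heat shock protein genes, with Hsf1 as the regulator.

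The deposited values were read as FPKM, which corrects fragment counts for transcript length and sequencing depth, and summed to between 428612 and 442836 in a library. Their steps implied 19600000 to 21100000 counted fragments per library, which is an estimate and not a stated depth. Replicate 1 stood apart from the other libraries in a set of genes unrelated to chaperones: the 39 Hox genes with an entry, which mark hindbrain and spinal cord, summed to 28.9 FPKM in replicate 1, against 0.338, 0.771 and 0.317 FPKM in replicates 2, 3 and 4. Of these Hox genes, 14 reached 0.5 FPKM in replicate 1 and 0 in each of the other libraries. Genes known from glutamatergic PSTh neurons were present in every library. Slc17a6, a vesicular glutamate transporter, ranged from 65.3 to 90.3 FPKM. Tac1 ranged from 46.9 to 91.8 FPKM and Adcyap1, which encodes PACAP, from 26.2 to 58.1. Each was highest in replicate 1, the library with the Hox signal. No other tissue was compared, so these values cannot test the tissue label. Several results that turn on replicate 1 are therefore also given without it. Percentiles and coefficients of variation include it throughout. In whole tissue, fewer cells of a type and less RNA per cell cannot be told apart.

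Chaperone genes stood high in the PSTh transcriptome. The median member had a mean of 29.3 FPKM, against 4.90 FPKM for all genes tested, and lay at percentile 86.1 of them. Of the 36 members, 6 averaged 100 FPKM or more, 27 averaged 10 or more, and 3 averaged under 1. Together they made up 0.796%, 0.817%, 0.761% and 0.780% of the summed FPKM in replicates 1, 2, 3 and 4. A group of 4 genes, Hspa8, Hsp90ab1, Hsp90aa1 and Cryab, supplied 61.3% to 63.4% of that sum. In the order of mean levels the ranges of these 4 genes over the libraries overlapped with no neighbour, whereas 24 of all 35 neighbouring pairs overlapped, so most of the order below them is not resolved.

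**Figure D1:**
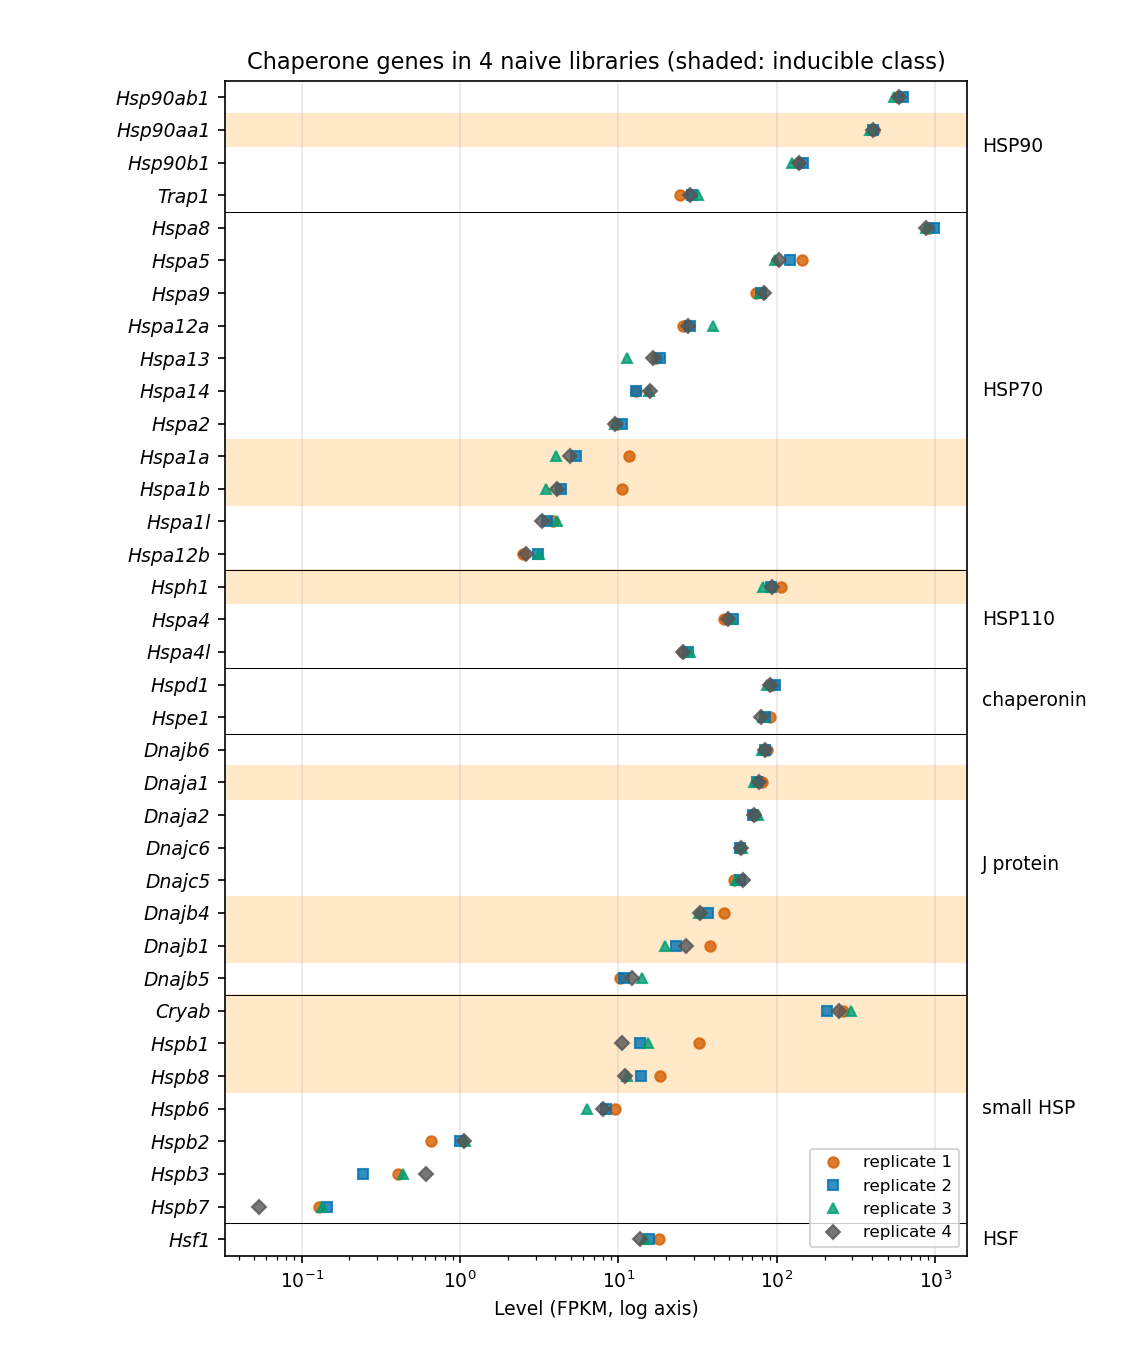
FPKM of each chaperone gene (log axis) in each of the 4 libraries, 1 symbol per library, grouped by family, with inducible genes shaded. Hspa8, Hsp90ab1, Hsp90aa1 and Cryab lead, Hspb2, Hspb3 and Hspb7 lie at the bottom, and the orange points of replicate 1 lie to the right for several inducible genes.

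Among the HSP90 genes, both cytosolic genes were very abundant. Hsp90ab1, the constitutive cytosolic HSP90, had 580.1, 626, 545 and 594 FPKM in replicates 1, 2, 3 and 4. Hsp90aa1, its heat-inducible paralog, had 412, 404, 387 and 402 FPKM in the same libraries. The ranges of the pair did not overlap, and Hsp90aa1 amounted to 0.710, 0.646, 0.711 and 0.677 of Hsp90ab1. Hsp90b1, the ER member also called GRP94, had 137, 147, 125 and 138 FPKM. Trap1, the mitochondrial member, had 24.6, 29.2, 31.6 and 28.1 FPKM. Differences from Hsp90ab1 were taken within each library on the log2(FPKM + 0.1) scale and tested with limma, adjusting p-values by Benjamini-Hochberg over all 17629 other genes. All 3 members were lower than Hsp90ab1, as were 99.7% of all genes tested, and 0 were higher, against 0.233%. The log2 difference was -0.54 (SE 0.06) for Hsp90aa1 with an adjusted p of 0.000307, and it was -2.10 (SE 0.05) for Hsp90b1 and -4.37 (SE 0.09) for Trap1. Much of the sequence of Hsp90aa1 recurs elsewhere: 53.1% of the 75-base stretches of its longest transcript also occur in transcripts of other genes, 45.0% in the pseudogene Gm12346 alone, and how such reads were assigned is not given in the sources used here. Gm12346 is not analysed here.

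The HSP70 family was led by a wide margin by Hspa8, the constitutive cytosolic HSC70, which among other tasks uncoats clathrin vesicles at synapses. Hspa8 had 908, 978, 869 and 870.1 FPKM in replicates 1, 2, 3 and 4, which put it at percentile 99.9 of all genes tested. Of its 75-base stretches 40.9% also occur in other genes, 36.8% in the pseudogene Gm15459, which is not analysed here. The other constitutive cytosolic HSP70 genes lay far below it. Hspa2, best known for its part in sperm formation, had 9.77, 10.5, 9.46 and 9.48 FPKM. Hspa14, a ribosome-associated member, had 12.9, 12.9, 15.6 and 15.9 FPKM. Hspa1l, a member best known from testis that lies next to Hspa1a on chromosome 17, had 3.89, 3.53, 4.10 and 3.28 FPKM. These 3 genes varied little between libraries, and Hspa14 shares 14.4% of its 75-base stretches with Gm45902, an overlapping gene on the same strand.

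Of the divergent members, Hspa12a had 25.5, 28.3, 39.4 and 27.5 FPKM in replicates 1, 2, 3 and 4, with replicate 3 above the others. Hspa12b, which is known from endothelial cells, had 2.51, 3.10, 3.17 and 2.62 FPKM. It stayed under 4 FPKM in every library and was lowest in replicate 1. The summed endothelial markers ranged from 51.5 to 64.8 FPKM, with Cldn5 alone at 27.4 to 43.2 FPKM. Of the 5 markers, 3 were lowest in replicate 1, against 27.3% of all genes tested, and 1 was highest there, against 26.9%. The HSP110 genes, whose proteins exchange the nucleotide of HSP70, were more abundant. Hsph1, the inducible HSP110 gene, had 107, 92.2, 81.4 and 93.6 FPKM. Hspa4 had 46.6, 52.9, 51.1 and 49.1 FPKM, and Hspa4l had 25.7, 27.6, 28.4 and 25.4 FPKM. The inducible gene was thus the highest of the HSP110 genes in every library, unlike the inducible genes of the HSP70 family.

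The inducible HSP70 genes Hspa1a and Hspa1b, the classical targets of HSF1, were low relative to Hspa8 and near the middle of all genes tested, at percentiles 55.6 and 52.6. Hspa1a had 11.7 FPKM in replicate 1, against 5.37, 4.06 and 4.97 FPKM in replicates 2, 3 and 4. Hspa1b had 10.5 FPKM in replicate 1, against 4.32, 3.51 and 4.07 FPKM in the same libraries. For both genes replicate 1 lay clear of the other libraries, which were close to each other. Their sum came to 2.44% of Hspa8 in replicate 1, against 0.992%, 0.872% and 1.04% in replicates 2, 3 and 4. Relative to Hspa8, the log2 difference was -7.22 (SE 0.27, adjusted p = 2.89e-06, limma) for Hspa1a and -7.46 (SE 0.29, adjusted p = 3.46e-06) for Hspa1b. Without replicate 1 these differences were -7.54 and -7.80, and the mean levels were 4.80 and 3.97 FPKM. The median of all genes tested, over all 4 libraries, was 4.90 FPKM. All 13 HSP70 and HSP110 members were lower than Hspa8, as were 99.8% of all genes tested (0.125% were higher), with differences from -2.98 for Hspa5 to -8.27 for Hspa12b.

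Hspa1a (chromosome 17, 34969190 to 34972156, minus strand) and Hspa1b (chromosome 17, 34956436 to 34959238, minus strand) are nearly the same gene. Of the 75-base stretches of Hspa1b, 55.8% also occur in Hspa1a, and 54.2% of those of Hspa1a occur in other genes, nearly all in Hspa1b, so the split of reads between them is uncertain and their sum is the firmer value. The ratio of Hspa1a to Hspa1b was 1.11, 1.24, 1.16 and 1.22 in replicates 1, 2, 3 and 4. Their promoters are near-copies too, at 247 identical bases of 250. The windows below are the 250 bases before the RefSeq start on GRCm38.p6, printed 5′ to 3′ on the gene's own strand. They are shown for Hspa1a, Hspa1b, Hspb1 and Hspb8, which are 4 of the 5 members farthest above the other libraries in replicate 1. The fifth, Dnajb1, is not printed, and none of the motifs searched is in its RefSeq windows. Capitals mark GAANNTTC, 2 units of the heat shock element to which HSF1 binds, searched on both strands. The windows are chr17:34972157-34972406 (minus strand) for Hspa1a, chr17:34959239-34959488 (minus) for Hspa1b, chr5:135887669-135887918 (plus) for Hspb1 and chr5:116422865-116423114 (minus) for Hspb8.
Hspa1a: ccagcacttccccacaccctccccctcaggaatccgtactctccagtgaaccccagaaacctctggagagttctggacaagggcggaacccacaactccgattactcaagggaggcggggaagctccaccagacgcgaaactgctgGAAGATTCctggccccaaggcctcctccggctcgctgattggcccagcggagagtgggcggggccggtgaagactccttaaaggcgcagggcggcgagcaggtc
Hspa1b: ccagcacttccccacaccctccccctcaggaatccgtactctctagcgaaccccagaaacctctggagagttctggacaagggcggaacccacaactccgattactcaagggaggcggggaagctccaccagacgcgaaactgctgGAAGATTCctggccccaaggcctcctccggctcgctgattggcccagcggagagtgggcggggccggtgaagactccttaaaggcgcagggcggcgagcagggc
Hspb1: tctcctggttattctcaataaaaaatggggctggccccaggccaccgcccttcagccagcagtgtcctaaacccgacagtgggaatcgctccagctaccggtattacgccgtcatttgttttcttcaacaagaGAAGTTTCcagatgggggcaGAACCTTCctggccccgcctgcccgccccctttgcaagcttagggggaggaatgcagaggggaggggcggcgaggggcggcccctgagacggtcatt
Hspb8: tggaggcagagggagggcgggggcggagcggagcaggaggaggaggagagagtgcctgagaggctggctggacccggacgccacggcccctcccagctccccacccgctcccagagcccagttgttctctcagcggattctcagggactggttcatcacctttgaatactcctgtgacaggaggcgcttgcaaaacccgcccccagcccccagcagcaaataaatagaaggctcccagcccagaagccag
The copies carry 1 match at the same place, GAAGATTC at bases -104 to -97 from the start, Hspb1 carries GAAGTTTC at -117 to -110 and GAACCTTC at -97 to -90, and these letters are not in the window of Hspb8.

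Of the 36 members, 27 had a promoter window in the RefSeq table, 8 of the 10 inducible genes and 19 of the other 26. GAANNTTC was present in 4 of the 8 inducible genes (Dnaja1, Hspa1a, Hspa1b and Hspb1) and in 5 of the 19 others, against 7.73% of 27025 genes. The motif of units facing out, TTCNNGAA, was present in 2 inducible genes, Dnajb4 and Hsph1, and in 3 others, against 8.11% of genes. The full run of 3 units, GAANNTTCNNGAA, contains both shorter motifs and was present in 0.514% of genes. Among the members it was found in 0 of the 8 inducible genes and in 3 of the 19 others, Dnajb6, Hspd1 and Hspe1. The windows of Hspd1 and Hspe1 overlap on opposite strands, so for each heat shock motif their matches are the same bases counted under both genes. Both genes were classed by compartment, as mitochondrial, and not by whether they are inducible. The ER stress element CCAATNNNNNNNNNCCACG, through which the unfolded protein response acts, was present in 0.13% of genes and in 2 members, Hspa5 and Hsp90b1. A match is a description of the letters and not a site shown to be used, and no match says only that these letters are not in the window.

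The ER chaperones were led by Hsp90b1 and Hspa5. Hspa5, the ER HSP70 called BiP or GRP78, had 143 FPKM in replicate 1, against 121, 97.5 and 103 FPKM in replicates 2, 3 and 4. Its promoter holds the ER stress element at bases -65 to -47, shown here as the classical target of that response.
Hspa5 element: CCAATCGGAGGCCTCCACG
Hsp90b1, given above, was higher than Hspa5 in 3 of 4 libraries, but at 0.25 on the log2 scale (SE 0.14, adjusted p = 0.133, limma) it did not pass. Without replicate 1 it was 0.35 with an adjusted p of 0.0290. Hspa13, a microsomal HSP70 that lacks the substrate-binding part, had 17.3, 18.2, 11.4 and 16.4 FPKM in replicates 1, 2, 3 and 4, with replicate 3 the lowest. Of the 2 other ER members, Hspa13 alone was lower than Hspa5 (-2.88, SE 0.14, adjusted p = 1.47e-05), as were 95.8% of all genes tested, and 0 were higher, against 2.09% of all genes.

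Of the mitochondrial chaperones, Hspd1, Hspe1 and Hspa9 lay close together and Trap1 lay lower. Hspd1 encodes HSP60, the subunit of the mitochondrial folding chamber, and had 92.5, 97.1, 86.4 and 90.6 FPKM in replicates 1, 2, 3 and 4. Hspe1 encodes HSP10, the lid of that chamber, and had 90.3, 84.2, 82.2 and 79.0 FPKM. Hspa9, the mitochondrial HSP70 that pulls imported proteins into the matrix, had 74.2, 79.6, 77.9 and 83.0 FPKM. Hspe1 amounted to 0.977, 0.867, 0.952 and 0.871 of Hspd1, and at -0.13 on the log2 scale (SE 0.06, adjusted p = 0.0928, limma) it did not pass. Hspa9 was lower than Hspd1 by a small amount, at -0.22 on the log2 scale (SE 0.06, adjusted p = 0.0191), and this was lost without replicate 1 (-0.19, adjusted p = 0.0671) and without replicate 2 (-0.20, adjusted p = 0.0713). Trap1 was lower by a wider margin (-1.69, SE 0.09, adjusted p = 1.77e-05), so 2 of 3 members were lower than Hspd1, as were 95.3% of all genes tested, and 0 were higher, against 3.21%. Hspd1 and Hspe1 are transcribed away from each other on chromosome 1 and their annotated exons overlap, so without strand reads there cannot be told apart. The promoter they share holds overlapping runs of 3 heat shock units, printed on the strand of Hspe1 at bases -89 to -77 and -84 to -72.
Hspe1 element, first: TTCTAGAACCTTC
Hspe1 element, second: GAACCTTCCGGAA
Both genes varied little, with coefficients of variation between libraries of 4.86% and 5.71%. The share of 75-base stretches of Hspd1 found in other genes was 33.7%, mostly in the pseudogene Hspd1-ps3, which is not analysed here.

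J proteins recruit HSP70 and start its ATPase. Dnajb6, which holds back aggregation of polyglutamine proteins, had 86.8, 83.7, 80.6 and 84.7 FPKM in replicates 1, 2, 3 and 4. Dnaja1, an inducible partner of cytosolic HSP70, had 80.6, 75.03, 71.3 and 76.6 FPKM. Dnaja2, its constitutive paralog, had 73.1, 70.3, 75.9 and 71.8 FPKM. Dnajb6 was the highest of these 3 genes in every library, while the ranges of Dnaja1 and Dnaja2 overlapped. The synaptic members came next. Dnajc6, or auxilin, which brings HSP70 to clathrin coats in neurons, had 58.3, 58.1, 60.1 and 59.7 FPKM, and its coefficient of variation of 1.66% was the lowest of all members. Dnajc5, the cysteine string protein of synaptic vesicles, had 53.7, 58.7, 55.5 and 60.7 FPKM.

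Lower J protein genes included the inducible Dnajb4 and Dnajb1. Dnajb4 had 46.3 FPKM in replicate 1, against 36.8, 32.2 and 32.6 FPKM in replicates 2, 3 and 4. Dnajb1, or HSP40, the classical inducible J protein, had 38.1 FPKM in replicate 1, against 23.0, 19.6 and 26.6 FPKM. Both were highest in replicate 1 with no overlap. Dnajb5 had 10.2, 10.9, 14.01 and 12.1 FPKM in replicates 1, 2, 3 and 4. Relative to Dnaja2, 5 of 7 members were lower, against 93.9% of all genes tested, and 1 was higher, against 4.4%. The higher member, Dnajb6, differed by 0.21 (SE 0.06, adjusted p = 0.0235, limma), which was lost without replicate 1 (adjusted p = 0.0800), replicate 2 (0.0845) or replicate 4 (0.102). The lower members ranged from -0.30 for Dnajc6 to -2.62 for Dnajb5, with Dnajb1 at -1.48 (SE 0.18, adjusted p = 0.000611) and Dnajb4 at -0.99. Dnaja1 did not pass (0.06, SE 0.07, adjusted p = 0.417). Of the 75-base stretches of Dnajb6 and Dnaja1, 33.3% and 16.6% also occur in other genes.

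Small heat shock proteins hold unfolded proteins in soluble complexes without ATP, and the means of their genes ran from 0.115 to 252 FPKM, the low end resting on few reads. Cryab, the αB-crystallin that is abundant in oligodendrocytes and also inducible, had 262, 208, 293 and 246 FPKM in replicates 1, 2, 3 and 4. The summed oligodendrocyte markers were 5649, 6530, 8196 and 7625 FPKM in the same libraries; replicate 3 was highest in both, while the lowest library was replicate 2 for Cryab and replicate 1 for the markers. Hspb1, HSP25 in mice, had 32.2 FPKM in replicate 1, against 13.7, 15.5 and 10.6 FPKM in replicates 2, 3 and 4. Hspb8, which works with Bag3 in selective autophagy, had 18.3 FPKM in replicate 1, against 13.8, 11.3 and 10.9 FPKM. For Hspb1 and Hspb8 replicate 1 was the highest library with no overlap.

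The remaining small heat shock genes are known from heart and skeletal muscle. Hspb6 had 9.56, 8.37, 6.29 and 8.0001 FPKM in replicates 1, 2, 3 and 4. Hspb2 ranged from 0.660 to 1.07 FPKM, Hspb3 from 0.244 to 0.608 FPKM and Hspb7 from 0.0536 to 0.145 FPKM. Hspb6 was therefore the only one of these 4 above 2 FPKM, and the others rested on few reads, 11 to 17 implied fragments per library for Hspb2, 4 to 10 for Hspb3 and 3 to 8 for Hspb7. Skeletal muscle markers were low, summing to 2.58 to 3.13 FPKM, with the defining marker Ckm at 0.0222 to 0.0750 FPKM. Hspb2 lies beside Cryab on the opposite strand with overlapping exons and amounted to 0.252%, 0.480%, 0.364% and 0.434% of Cryab, so reads of the pair cannot be told apart without strand. All 6 members were lower than Cryab, as were 98.5% of all genes tested (0.675% were higher), from -3.92 (SE 0.28, adjusted p = 6.53e-05, limma) for Hspb1 to -10.21 (SE 0.18, adjusted p = 1.60e-06) for Hspb7. Without replicate 1 the difference for Hspb1 was -4.22. The shared fraction of the 75-base stretches of Hspb1 was 47.3%, all in the pseudogene Hsp25-ps1, which is not analysed here.

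Hsf1, the transcription factor that controls the inducible genes, had 17.9 FPKM in replicate 1, against 15.6, 14.6 and 13.7 FPKM in replicates 2, 3 and 4. Replicate 1 was the highest library, by 0.29 on the log2 scale over the mean of the others. Among related genes, Hsbp1, an HSF1-binding inhibitor, averaged 167 FPKM, Hsf4 averaged 14.01 and Hsf2 averaged 7.51.

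**Figure D2:**
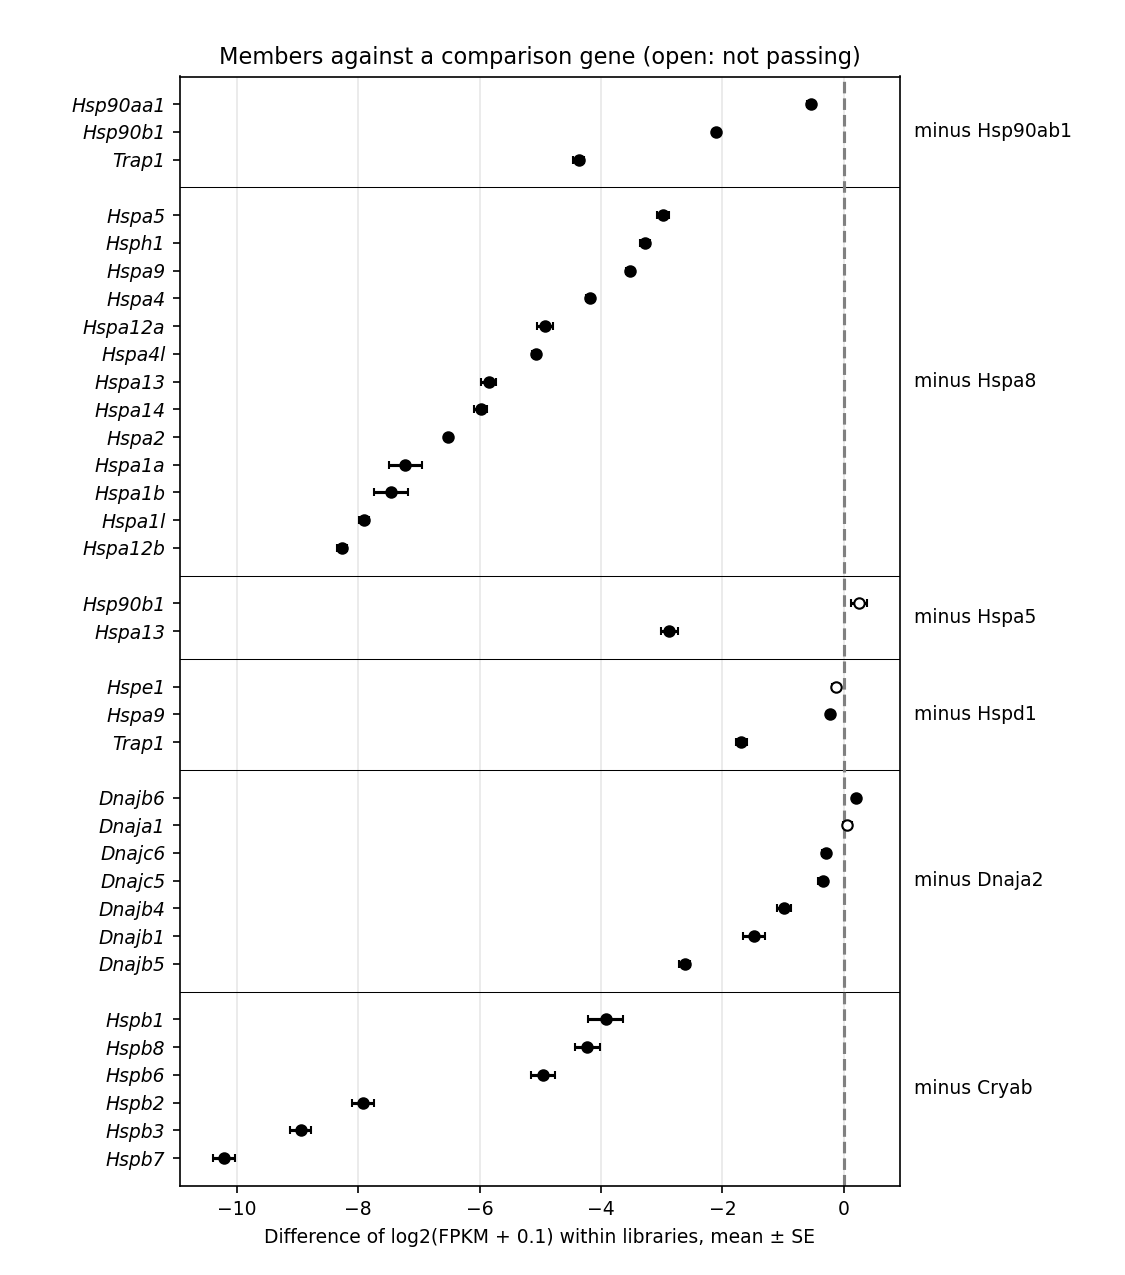
Within-library difference between each chaperone gene and the comparison gene named at the right of its group, on the log2(FPKM + 0.1) scale. Points are mean ± SE over 4 libraries, with open circles where the adjusted p did not pass 0.05. Cryab, the comparison gene of the small heat shock group, is itself in the inducible class. Hspa1a and Hspa1b lie at -7.22 and -7.46 against Hspa8, and Hsp90aa1 at -0.54 against Hsp90ab1, so the inducible paralogs of these families stand at very different distances from their constitutive partners.

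The partners of these chaperones were set against the same comparison genes. All 17 HSP90 co-chaperones were lower than Hsp90ab1, as were 99.7% of all genes tested, with a median log2 difference of -3.47, and the most abundant were Fkbp8 at 179 FPKM, Stip1 (HOP, which links HSP70 to HSP90) at 119 and Ahsa1 (which speeds the HSP90 ATPase) at 98.3. All 11 HSP70 nucleotide exchange factors were lower than Hspa8, against 99.8% of all genes, with a median of -5.91, and were led by Bag1 at 87.1 FPKM, Hspbp1 at 61.3 and Bag6 at 50.1. Of 20 other J protein genes, 19 were lower than Dnaja2, against 93.9% of all genes, and 1, Dnajc8 at 76.7 FPKM, did not pass, followed by Dnajc7 at 59.7 and Dnajb2 at 54.96. Of 14 genes of ER folding and the unfolded protein response, 12 were lower than Hspa5, against 95.8% of all genes, and 1 was higher, against 2.09%. The higher gene was Calr, the lectin chaperone calreticulin, at 161 FPKM (0.49, SE 0.12, adjusted p = 0.0138), and Canx, calnexin, at 119 FPKM did not pass. Pdia3, a disulphide isomerase, averaged 89.9 FPKM.

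The cytosolic chaperonin TRiC folds actin and tubulin. Of its 8 subunit genes 7 were tested against Hspd1, its mitochondrial counterpart, with 1 higher (Cct8 at 115 FPKM), 2 lower and 4 not passing, and a median difference of -0.03. Of all genes tested, 3.21% were higher and 95.3% lower than Hspd1. Cct2 averaged 96.9 FPKM and Cct5 94.1 FPKM, and Cct6a is not analysed here. Prefoldin, which delivers chains to TRiC, had 5 of 6 genes lower than Hspd1, against the same 95.3%, with Pfdn5 at 108 FPKM, Pfdn2 at 53.0 and Vbp1 at 52.2. Of the other genes listed with the small heat shock genes, Hspb11 averaged 7.75 FPKM and Cryaa 0.238 FPKM. The median of all genes tested was 4.90 FPKM.

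Inducible and constitutive members were then compared between libraries. For each gene the log2 value of a library was set against the mean of the other 3, and a library was called apart at 0.5 log2 units, 1.41-fold, or more. This describes single libraries and is not a test of a condition. In replicate 1, 5 members were higher by that amount, against 7.64% of all genes tested, and 1 was lower, against 8.1%. All 5 were inducible genes: Hspa1b at 1.39, Hspb1 at 1.29, Hspa1a at 1.27, Dnajb1 at 0.73 and Hspb8 at 0.61. Dnajb4 at 0.45, Hsph1 at 0.26 and Dnaja1 at 0.12 lay in the same direction under that size. Cryab at 0.08 and Hsp90aa1 at 0.05 barely differed. Of the 26 members outside the inducible class, 0 were higher by that amount and 1, Hspb2, was lower.

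**Figure D3:**
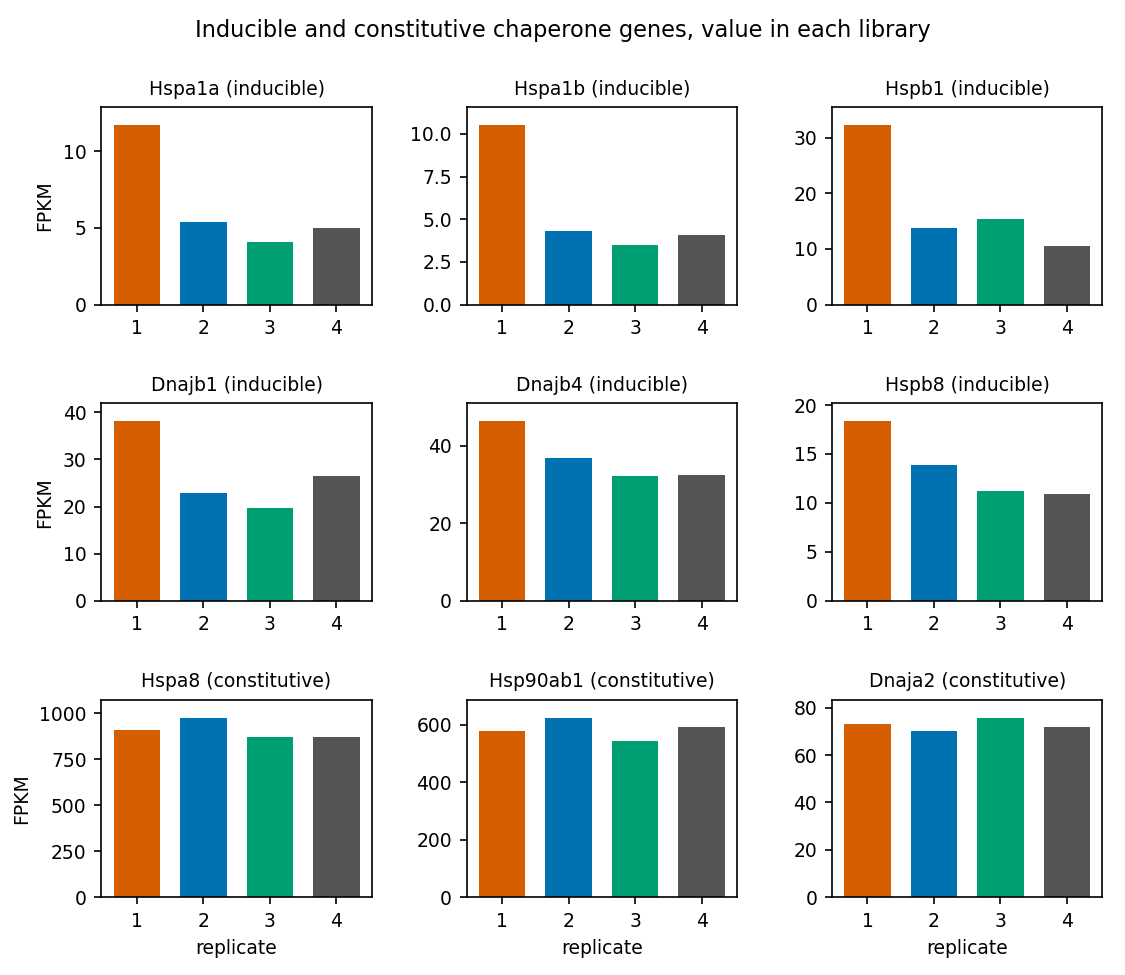
FPKM in each library for 6 inducible genes (upper rows) and 3 constitutive genes (bottom row), with bars from 0 and 1 bar per replicate. The 6 inducible genes are those farthest above the other libraries in replicate 1. The inducible genes not shown, Hsph1, Dnaja1, Cryab and Hsp90aa1, deviated there by 0.26, 0.12, 0.08 and 0.05 log2 units. Replicate 1 is the tallest bar for each inducible gene shown, reaching 32.2 FPKM for Hspb1 against 10.6 to 15.5 in the other libraries. Hspa8, Hsp90ab1 and Dnaja2 are nearly level, while other constitutive genes such as Hspa12a, not shown, ranged more widely, from 25.5 to 39.4 FPKM.

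The median deviation of the 10 inducible members in replicate 1 was 0.53 log2 units, against -0.05 for the 14 constitutive cytosolic members and -0.00065 for all genes tested. Replicate 1 was the highest library for 9 of the 10, against 26.9% of all genes tested, the exception being Cryab. Hspa1a and Hspa1b share sequence and are not independent; without them the median of the other 8 was 0.36, with 3 higher by the set amount and 7 highest in replicate 1. Among the 14 constitutive cytosolic genes replicate 1 was highest for 1, Dnajb6, and lowest for 5, against 27.3% of all genes tested. Hspa8 deviated by 0.01, Hsp90ab1 by -0.02 and Dnaja2 by 0.01. The difference between the classes was not tested, since genes of 1 library are not replicates.

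**Figure D4:**
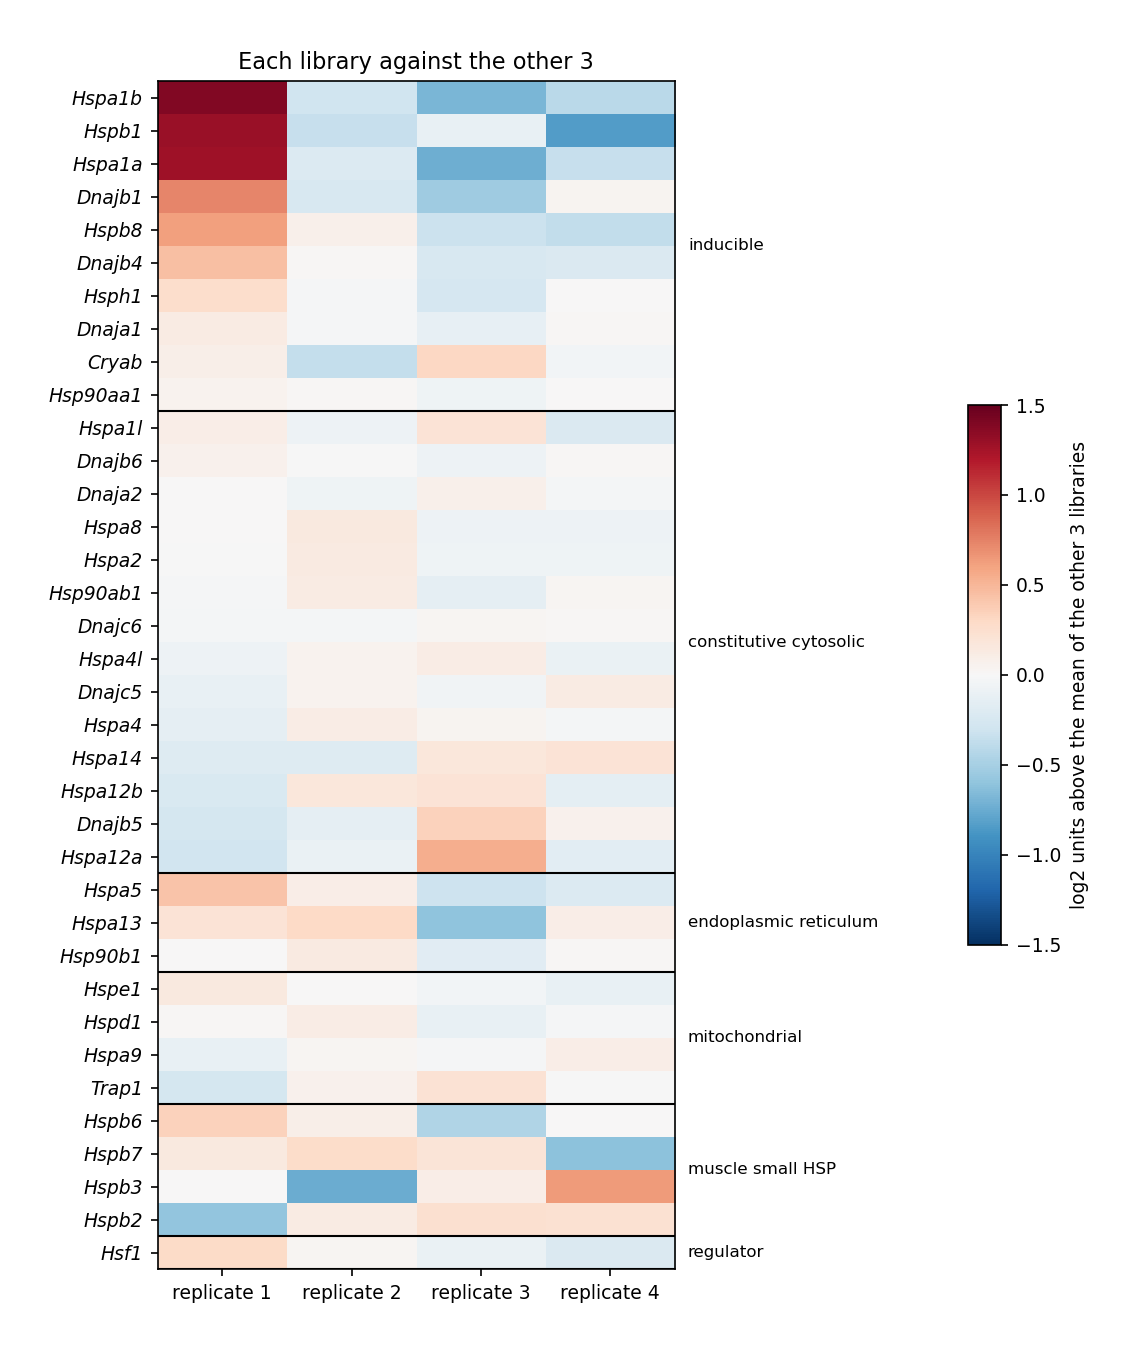
Colour map of the log2 deviation of each library (columns) from the mean of the other 3, for all 36 members in rows grouped by class, red where higher and blue where lower. The darkest red cells are Hspa1b, Hspb1 and Hspa1a in replicate 1, between 1.27 and 1.39, and the constitutive rows are pale.

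In the other libraries the members called apart were few. Replicate 2 had 0 higher and 1 lower, against 8.25% and 6.01% of all genes. Replicate 3 had 1 higher (Hspa12a) and 4 lower, against 7.31% and 9.96%, and replicate 4 had 1 higher and 2 lower, against 6.26% and 6.71%. Replicate 3 held the low end of the inducible class, with a median of -0.25 and the lowest value for 7 of 10 genes, against 35.6% of all genes tested. The inducible medians were -0.11 in replicate 2 and -0.13 in replicate 4.

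The median spread between libraries also differed between the classes, which was not tested. The median coefficient of variation was 21.5% for inducible genes, 5.57% for constitutive cytosolic genes, 17.7% for ER, 5.29% for mitochondrial and 27.8% for the muscle-associated small genes, against 12.2% for all genes tested. The inducible value was 15.9% without Hspa1a and Hspa1b, which share sequence. Of the 4 muscle-associated genes, Hspb2, Hspb3 and Hspb7 rest on only 3 to 17 implied fragments per library. Each gene's variance was tested against the trend of variance with expression (limma, one-sided). After Benjamini-Hochberg adjustment, 0 of 36 members passed, as did 0% of all genes tested. Even the choroid plexus gene Ttr, 5.36 log2 units above the other libraries in replicate 4, did not pass this test (adjusted p = 0.0807). With 4 libraries, the lack of members passing therefore does not show that their spread is ordinary. At an unadjusted p under 0.05 there were 9 members, against 5.85% of all genes, and 6 of them were inducible. The lowest were Hspb1 (unadjusted p = 0.00175, adjusted 0.295), Hspa1b (0.00529, adjusted 0.465), Hspa1a (0.00561, adjusted 0.469) and Dnajb1 (0.01002, adjusted 0.571). By Dixon's ratio 1 library stood apart for 2 of 36 members, Hspa1b and Hspb2, against 7.32% of all genes tested. In the variance test without replicate 1 the 9 became 3, against 5.75% of all genes: Hspa12a, Hspa13 and the inducible Cryab.

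Other genes that differed in replicate 1 are given beside these values. ER folding and unfolded protein response genes had a median deviation of 0.32 there, with 3 of 14 higher by 0.5 or more, against 7.64% of all genes tested, and 9 highest in replicate 1, against 26.9%. Those 3, named after their values were seen, were Sdf2l1 at 0.73, Creld2 at 0.71 and Xbp1 at 0.55, and Hspa5 itself deviated by 0.42. The HSP90 co-chaperones (0.04), the HSP70 exchange factors (-0.03) and the TRiC subunits (0.06) had medians near 0. Higher by 0.5 or more were 0 of 17 co-chaperones, 1 of 11 exchange factors and 0 of 7 TRiC subunits, against 7.64% of all genes tested. That exchange factor, named after its value was seen, was Bag3 at 0.58. Highest in replicate 1 were 8 of the 17 co-chaperones, 4 of the 11 exchange factors and 3 of the 7 TRiC subunits, against 26.9%. Immediate early genes, a sign of recent neuronal activity, had medians of 0.13, -0.17, -0.34 and 0.44 in replicates 1, 2, 3 and 4, and their summed level was 82.9, 64.7, 62.6 and 88.9 FPKM. In replicate 1, 3 of these 10 genes were higher by 0.5 or more, against 7.64% of all genes tested. There 1 was lower by that amount, against 8.1%, and 3 were highest, against 26.9%. In replicate 4, 5 were higher by 0.5 or more, against 6.26%, and 0 were lower, against 6.71%. Replicate 4 was the highest library for 5 of them, against 3792 of the 17630 genes tested.

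Cell type markers differed between libraries as well. The 6 oligodendrocyte markers were all lowest in replicate 1, with a median of -0.47, and highest in replicate 3, with a median of 0.35. The summed levels were 1864, 1824, 1983 and 1786 FPKM for 5 neuron markers in replicates 1, 2, 3 and 4. Astrocyte markers summed to 788, 800.4, 732 and 761 FPKM, and microglia markers to 73.0, 89.7, 77.8 and 82.2 FPKM. Mural cell markers summed to 78.3, 69.7, 68.4 and 65.5 FPKM. Of the 5 mural markers, Acta2 (0.56) and Tagln (0.56) were higher by 0.5 or more in replicate 1, against 7.64% of all genes tested. The median of the list there was -0.07, and the others lay slightly lower than the mean of the other libraries. Mitochondrially encoded genes took 22.2%, 19.1%, 21.6% and 19.8% of the summed FPKM. Choroid plexus and ependymal markers summed to 57.9 FPKM in replicate 4, against 7.33 to 8.57 FPKM in the others. Most of that sum was the single gene Ttr, at 49.7 FPKM in replicate 4, against 0.587 to 1.99 FPKM. Foxj1 had 6.45 FPKM in replicate 4, against 4.97 to 5.57 FPKM, and Kcnj13 was highest in replicate 1. Whether these differences, or the Hox signal of replicate 1, have a part in the inducible genes' values was not tested.

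**Figure D5:**
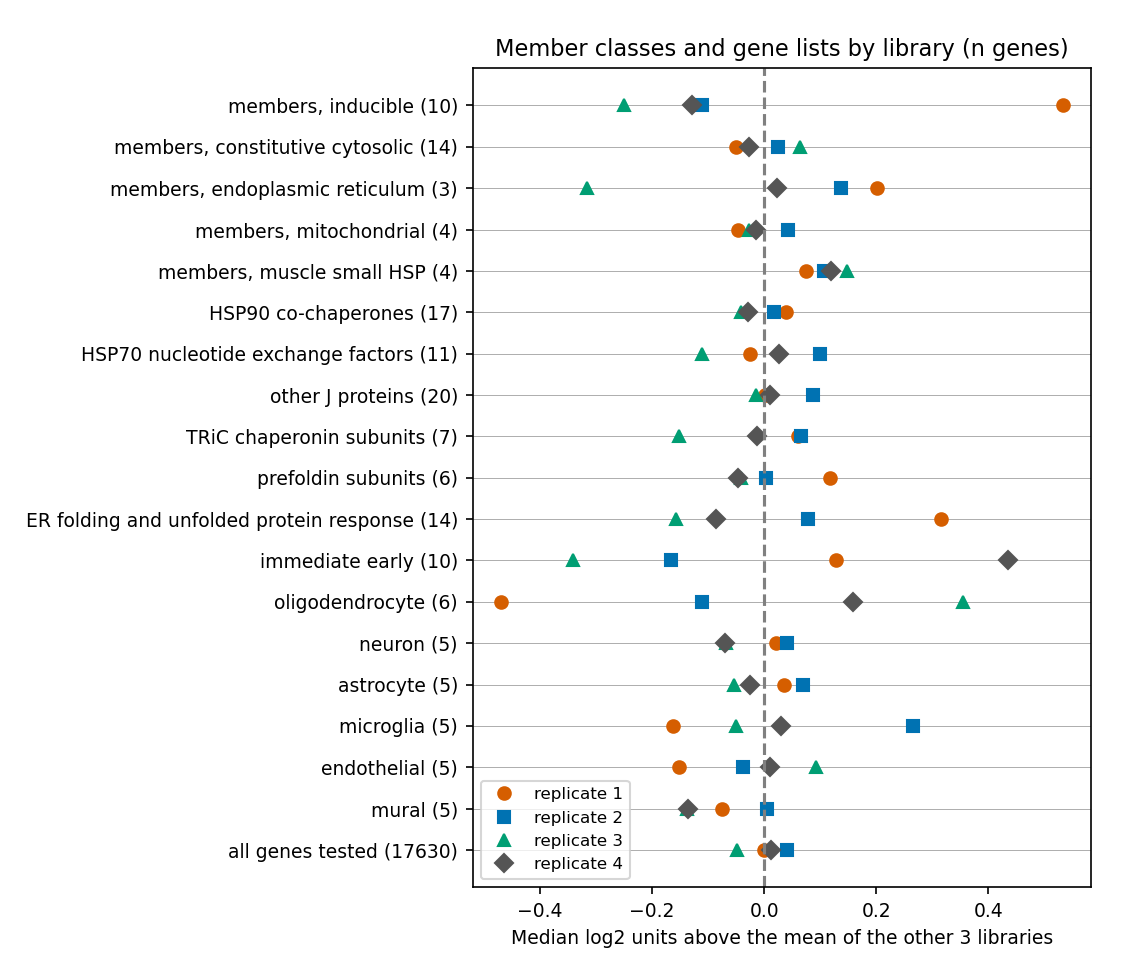
Median log2 deviation of each library from the mean of the other 3, for the classes of chaperone genes, their partner lists and cell type markers, with the number of genes in parentheses and 1 symbol per library. For the inducible class replicate 1 lies at 0.53 and the other libraries between -0.25 and -0.11, and for oligodendrocyte markers replicate 1 lies at -0.47.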

How the data were processed

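RNA was extracted from brain tissue with TRIzol and sequenced after mRNA library preparation, per the labels' protocols. The genome build was GRCm38, per the submitters' processing notes; for the aligner, quantifier, annotation and strand setting the sources used here give nothing. The authors' deposited values were taken to be FPKM, since they carry no unit and behave as such; 23.4% to 25.5% of low values lay within 0.05 of a whole step, so counts were not recovered and no counting intervals were computed. No per-sample column was left unused. Symbols, loci and transcripts came from GENCODE M21, which matched 22022 of 22036 Ensembl identifiers.

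Members and lists were chosen with earlier results of these data known. A mean of at least 0.1 FPKM was required, and values were put on the log2(FPKM + 0.1) scale, which makes differences between low genes look smaller. Differences from a comparison gene were tested two-sided with limma 3.58.1 in R 4.3.3, fitting an intercept, with limma's prior capped at 1.63 degrees of freedom, the value from a fit of the genes' own levels, and a threshold of 0.05 on the adjusted p. The spread test set each gene's residual variance over a robust prior with a trend in limma (4.28 degrees of freedom) and used the upper tail. Shared sequence was counted as 75-base stretches of the longest transcript found in any transcript of another gene. Fragment numbers are implied by the step between low values. Promoter windows came from RefSeq on GRCm38.p6, without chromosome 18. Python 3.11.15 did the rest. The fits were tested on simulated data.

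By rule every member may be named, with each library's value for those averaging 1 FPKM or more; of other lists the 3 most abundant genes and any gene with a library apart are named. Alternatives were other pseudocounts, filters, scalings and thresholds, no length correction, an unlimited prior, and leaving out each replicate.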

Additional observations from a re-analysis of the deposited data

Results flagged for a closer look

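In 6 genes, 2 of them chaperone genes, 1 library lay farther from the other 3 than those lay from each other, by a gap above Dixon's critical ratio for 4 samples. Chance gives this in about 5% of groups of 4; it held for 5.56% of the 36 members, 3.1% of the 129 genes of the other lists and 7.32% of all genes tested. Hspa1b, an inducible HSP70 gene, was high in replicate 1 at 10.5 FPKM, against 3.51 to 4.32 FPKM in the others. Hspb2, a small heat shock gene beside Cryab, was low in replicate 1 at 0.660 FPKM, against 0.998 to 1.07 FPKM. Dnajb12, an ER-anchored J protein gene, was low in replicate 1 at 10.5 FPKM, against 12.4 to 12.6 FPKM. The neuronal gene Rbfox3 was high in replicate 4 at 36.2 FPKM, against 31.6 to 31.7 FPKM. The microglial gene P2ry12 was low in replicate 3 at 12.5 FPKM, against 12.9 FPKM in each of the others. The choroid plexus gene Ttr was high in replicate 4 at 49.7 FPKM, against 0.587 to 1.99 FPKM. The part of tissue makeup or sequencing in these values was not tested.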

How the results depend on the processing

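Other pseudocounts, other filters and an unlimited prior left the counts of members against Hsp90ab1 and Hspa8 as reported, and neither scaling moved a library's count of members by over 1.5 times. Of the values of single genes, 325 kept their direction and their side of the threshold, 3 reversed, 3 newly passed and 6 no longer passed. Without length correction, which compares fragments and not levels, Hspa9 against Hspd1 became 0.11, Dnajc5 against Dnaja2 0.82 and Dnajc6 0.57, and the J protein counts became 2 lower and 4 higher. With a filter at a mean of 1 FPKM, 3 small heat shock members were left and 3 were lower than Cryab. Leaving out each replicate gave 0 to 1 higher members against Hspa5 (1 without replicate 1), 1 to 2 lower against Hspd1 (1 without replicate 1 or 2) and 0 to 1 higher against Dnaja2 (1 without replicate 3). In the spread test, no filter gave 2556 genes called and 0 members at an unadjusted p under 0.05; leaving out replicates gave 0 to 8 genes called (4 without replicate 3, 8 without replicate 4) and 3 to 9 members unadjusted (3 without replicate 1).

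The 5 members higher in replicate 1 stayed 5 under every pseudocount, filter and scaling, were 3 at a threshold of 1 log2 unit, and were 5 to 7 when another replicate was left out. At that threshold all other counts were 0. With a pseudocount of 1, or with a filter at a mean of 1, replicate 1 had 0 lower, replicate 2 had 0 lower, and replicate 4 had 0 higher and 1 lower. With a pseudocount of 0.01 replicate 2 had 1 higher. Leaving out a replicate gave 1 to 2 lower in replicate 2, 0 to 1 higher and 1 to 5 lower in replicate 3, and 0 to 1 higher and 1 to 5 lower in replicate 4; the cause was not tested. No paired analysis was possible because there is 1 group. Depth limits Hspb2, Hspb3 and Hspb7, which rest on 3 to 17 implied fragments per library.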
